A study of Caenorhabditis elegans with 2 samples.

Results

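The insulin pathway genes from daf-2 to daf-16 are 10 named genes of Caenorhabditis elegans, examined here for binding of the transcription factor MDL-1. They were taken by name, as 10 of 19973 nuclear protein-coding genes, with earlier results of these data known. Counts set below beside the share of all genes are therefore descriptions and were not tested. Each gene was given a window that ran from 5 kb upstream of its most upstream annotated 5' end to the end of the gene. MDL-1 is the worm relative of the mammalian Mad proteins, which carry a basic helix-loop-helix leucine zipper domain and bind DNA as pairs with a Max-like partner. Chromatin immunoprecipitation and sequencing was done on whole animals of pooled sex at the fourth larval stage (L4), with sonicated chromatin, in 2 biological replicates of 1 group. The worms were of strain OP355, genotype unc-119(tm4063) III; wgIs355, with an insertion labelled as targeting mdl-1. One note of both libraries names KLU-1 as the protein with the C-terminal GFP-FLAG tag, whereas the antibody, source and description fields name MDL-1. There was no second condition, and whole animals mix all tissues, so a peak cannot be placed in a cell type.

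Insulin-like peptides act on the receptor DAF-2, which signals through the phosphoinositide 3-kinase AGE-1. The lipid product of AGE-1 is removed by the lipid phosphatase DAF-18 and otherwise recruits PDK-1 and the kinases AKT-1 and AKT-2. These kinases phosphorylate the FOXO factor DAF-16, which 14-3-3 proteins (FTT-2 and PAR-5 in the worm) then hold in the cytoplasm. When signalling is low, DAF-16 enters the nucleus and acts on genes for dauer formation, stress resistance and long life. The gene mdl-1 is itself known as a target of DAF-16.

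Of the 10 genes, 7 held a reproducible MDL-1 peak in the window: daf-2, pdk-1, akt-1, akt-2, daf-16, ftt-2 and par-5. The genes age-1, daf-18 and sgk-1 held none. Among all protein-coding genes the same window held such a peak in 7.46%, and in 8.31% of the 13590 genes with windows as long as those of the pathway genes (6419 to 51333 bp). These 7 genes held 15 peaks of the authors' reproducible ("optimal") list of 1115. Windows of 5 genes (daf-2, pdk-1, akt-1, daf-16 and ftt-2) held 2 or more, against 1.28% of all genes. Binding was thus recorded at the receptor, at 3 of the kinase genes, at both 14-3-3 genes and at the FOXO gene. It was not recorded at the lipid kinase, the lipid phosphatase or sgk-1, a kinase related to Akt.

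Long windows held a peak more often: 17.2% of the 198 genes above 25 kb had one, against 5.48% of genes with windows of 5 to 7 kb. The 14-3-3 genes, with windows of 6.7 kb (ftt-2) and 6.4 kb (par-5), belong to the class with the lowest share. The genes daf-2 (51.3 kb) and daf-16 (31.2 kb) belong to the class with the highest. A mean density of optimal peaks would give 0.57 peaks in the window of daf-2 and 0.35 in that of daf-16, which held 2 and 5.

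**Figure D1:**
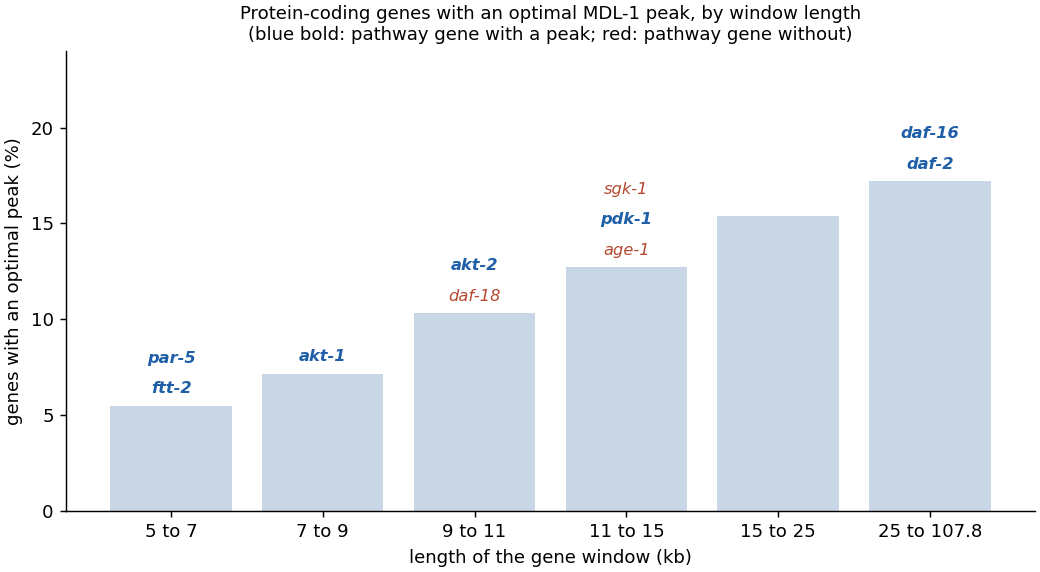
Bars give the percentage of protein-coding genes with an optimal MDL-1 peak in the gene window (y axis), in 6 classes of window length in kb (x axis). Names above a bar are the pathway genes of that class: ftt-2 and par-5 have a peak in the class at 5.48%, and age-1 and sgk-1 have none in the class at 12.7%.

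Each region carries a signal from the authors' peak caller, and signals were compared within a list only, since the lists do not share a scale. Ranks count from the strongest region, and the optimal peaks are the 1115 strongest of 30000 pooled candidate regions, with a lowest signal of 48.2 and a median of 72.2. Each replicate has a candidate list of 30000 regions too. Peaks of a gene are numbered below from upstream to downstream along its transcription, and the feature is that at the summit.

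The receptor gene daf-2 (WBGene00000898, chrIII:2994514-3040846, minus strand, ce11) had the strongest peak of the set in the pooled list and in replicate 1. In replicate 2 a region at ftt-2 and a peak of pdk-1 ranked above it. Peak 2 (chrIII:3036007-3036402) had a pooled signal of 157, rank 111, above 90.0% of optimal peaks. In replicate 1 its signal was 109 and its rank 97. In replicate 2 the signal was 49.5 and the rank 171. Both replicates thus placed it among their strongest regions, with summits 30 bp and 1 bp from the pooled one.

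Peak 1 of daf-2 (chrIII:3037182-3037577) was weaker, with a pooled signal of 62.3 and rank 739. Its rank was 1253 in replicate 1, outside the top 1115, and 266 in replicate 2, a difference of 4.71-fold. Both summits, 1175 bp apart, lay in intron 1 of transcript Y55D5A.5c.1, which is 11981 bp long and is the only annotated daf-2 transcript that spans them. From the 5' end of that transcript they lay 3466 bp (peak 1) and 4641 bp (peak 2) downstream. The next 5' end, of Y55D5A.5a.1, lay 8580 bp and 7405 bp downstream of the summits. The other 5 annotated 5' ends of daf-2 were between 7503 bp and 36068 bp downstream of them. No candidate region lay in the 5 kb upstream of daf-2, and the strongest region at its most upstream 5' end, 82 bp downstream of it, had rank 5750.

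Sequences of 101 bp centred on these summits are printed because they differ in the letters they hold. They are given along the daf-2 strand from chrIII:3037330-3037430 and chrIII:3036155-3036255 of the ce11 reference. Capitals mark CACGTG (the E-box recognised by Max and its partners), the E-box variants CACGCG and also CACATG, the repeat GAGAGA, or GTAAACA (the element DAF-16 is known to bind), on either strand. Peak 1 holds a CACGTG centred 5.5 bp upstream of its summit, beside a long tract of GA repeats. Peak 2 has the higher signal and holds a single GAGAGA match, read here on the other strand.
daf-2 peak 1: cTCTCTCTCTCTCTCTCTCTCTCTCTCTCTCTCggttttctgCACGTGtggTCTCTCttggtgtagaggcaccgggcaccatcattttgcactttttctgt
daf-2 peak 2: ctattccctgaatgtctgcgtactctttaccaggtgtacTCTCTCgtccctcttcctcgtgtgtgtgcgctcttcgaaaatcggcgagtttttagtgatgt

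**Figure D2:**
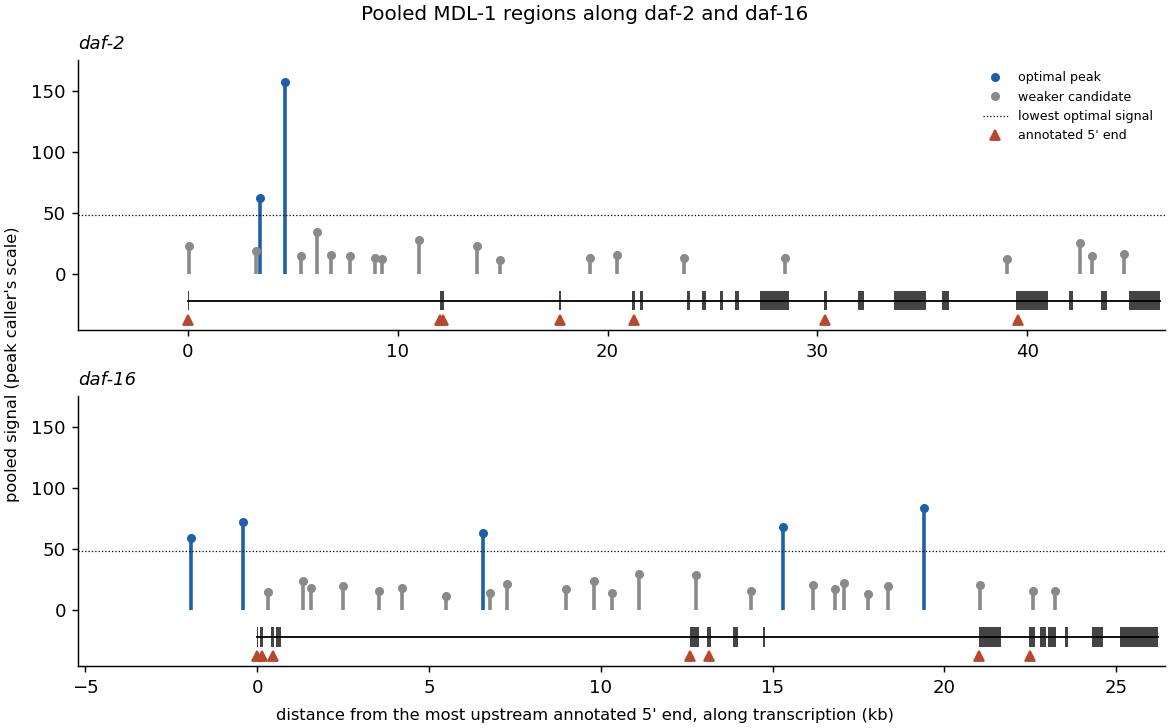
Pooled MDL-1 candidate regions along daf-2 and daf-16, by distance of the summit from the most upstream annotated 5' end (x axis, kb, along transcription) and by signal on the peak caller's scale (y axis). Blue stems are optimal peaks, grey stems weaker candidates, the dotted line is the lowest optimal signal of 48.2, boxes are exons and triangles annotated 5' ends. Both daf-2 peaks lie in the first intron, and the 5 daf-16 peaks spread from 1916 bp upstream to 19395 bp downstream of the first 5' end.

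The lipid kinase and phosphatase genes held no optimal peak. The window of age-1 (WBGene00000090, chrII:11519328-11527054, minus strand), which encodes the catalytic subunit of phosphoinositide 3-kinase, held 1 pooled candidate. That region, in a coding exon near the 3' end of the gene, had a signal of 19.4 and rank 8681. Of all protein-coding genes, 60.1% had a worse best rank or no candidate. The median best rank of genes with a candidate was 8123. The best ranks in the age-1 window were 9465 in replicate 1 and 15703 in replicate 2. For daf-18 (WBGene00000913, chrIV:420011-425177, minus strand) there was no pooled candidate. Replicate 1 had 1 candidate there, of rank 24690, and replicate 2 had none. Of all protein-coding genes, 23.8% had no pooled candidate in the window. Both age-1 and daf-18 contain CACGTG sequences, 4 in the window of age-1 and 2 in that of daf-18. The nearest pooled summit to any of them was 1161 bp away, at age-1.

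The gene pdk-1 (WBGene00003965, chrX:1321344-1327986, plus strand), for the kinase that activates Akt, had a strong peak on each side of its 5' ends. Peak 1 (chrX:1319779-1320174, intergenic) had a pooled signal of 119 and rank 204, and its ranks were 183 in replicate 1 and 395 in replicate 2. Peak 2 (chrX:1323065-1323460) had a signal of 106 and rank 257, with ranks of 329 in replicate 1 and 154 in replicate 2. The replicates thus disagreed on which of the 2 is stronger, and both kept both within their top 395. Summit 1 was 1367 bp and 1376 bp upstream of the 2 annotated 5' ends. Summit 2 was 1919 bp and 1910 bp downstream of them, in intron 2 (2051 bp) of both transcripts. Neither lay within 1000 bp upstream to 200 bp downstream of a 5' end, the promoter window used here.

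Both pdk-1 summits hold the E-box variant CACGCG, and the 101 bp sequences are shown for comparison of its surroundings. They run along the pdk-1 strand from chrX:1319927-1320027 and chrX:1323213-1323313, with the same motifs in capitals. The first is 69.3% G and C and the second 43.6%, against a median of 48.5% over all optimal summits.
pdk-1 peak 1: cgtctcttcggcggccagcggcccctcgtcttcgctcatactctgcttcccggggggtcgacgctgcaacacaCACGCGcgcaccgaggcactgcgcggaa
pdk-1 peak 2: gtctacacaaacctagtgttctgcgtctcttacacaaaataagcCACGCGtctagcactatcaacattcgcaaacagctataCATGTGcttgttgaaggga

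The Akt genes had peaks upstream of the gene and none inside it. At akt-1 (WBGene00000102, chrV:10248905-10252845, plus strand), peak 1 (chrV:10246412-10246807) had a pooled signal of 56.3 and rank 866, with ranks of 973 in replicate 1 and 653 in replicate 2. Peak 2 (chrV:10247053-10247448) had a signal of 53.2 and rank 954. It ranked 746 in replicate 1 and only 2507 in replicate 2. The akt-1 peaks were thus near the lower end of the optimal list. Their summits were 641 bp apart, 2295 bp and 1654 bp upstream of the first of 3 annotated 5' ends, which span 10248905 to 10248956. A region nearer to the gene, 504 bp upstream, had a signal of 26.3 and rank 3961.

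The second Akt gene, akt-2 (WBGene00000103, chrX:14147700-14152070, plus strand), had 1 peak (chrX:14146784-14147179), 718 bp upstream of its only annotated 5' end and intergenic. Its pooled signal was 85.2 and its rank 404, with ranks of 377 in replicate 1 and 755 in replicate 2. All values placed it in the optimal range, higher than both akt-1 peaks in the pooled list and in replicate 1. In replicate 2, peak 1 of akt-1 ranked above it.

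The sequences at the first akt-1 summit (chrV:10246560-10246660) and at the akt-2 summit (chrX:14146932-14147032) show a contrast between these 2 peaks. The akt-1 sequence holds the only CACGTG of the akt-1 window, centred 10.5 bp upstream of the summit. The akt-2 summit has none, but GA repeats (TCTCTC on this strand). Peak 2 of akt-1, whose sequence is not shown, holds CACGCG and neither CACGTG nor GAGAGA.
akt-1 peak 1: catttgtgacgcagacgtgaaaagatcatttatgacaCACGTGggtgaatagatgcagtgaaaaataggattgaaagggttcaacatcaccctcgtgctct
akt-2 peak 1: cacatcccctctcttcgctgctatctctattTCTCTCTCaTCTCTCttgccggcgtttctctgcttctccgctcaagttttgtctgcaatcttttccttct

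At akt-2 the window held 6 CACGTG sequences, of which 5 were upstream of the gene, at 2512, 1381, 1200, 303 and 134 bp from the 5' end. No pooled summit lay within 50 bp of any of these, and the closest was 213 bp away. The kinase gene sgk-1 (WBGene00004789, chrX:16254842-16262122, minus strand), which belongs to the serum- and glucocorticoid-inducible kinases, had no CACGTG in its window. It had 2 pooled candidates, the stronger with a signal of 13.7 and rank 19982, in an intron, with an internal start of sgk-1 444 bp further downstream. The other, of rank 27247, lay in a coding exon of the neighbouring gene mua-6. Best ranks at sgk-1 were 21221 in replicate 1 and 16948 in replicate 2.

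**Figure D3:**
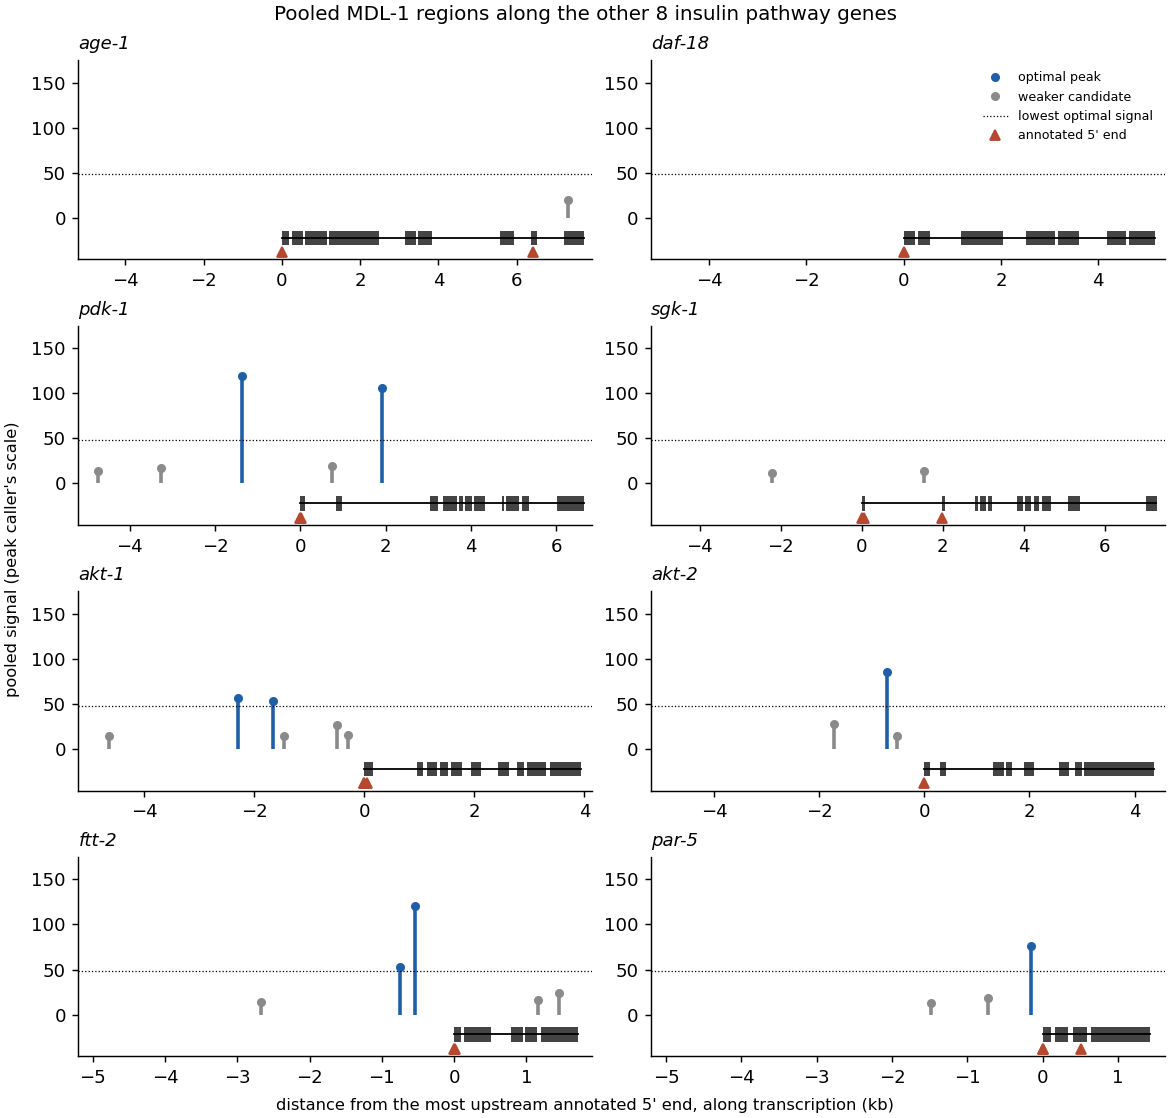
Pooled MDL-1 candidate regions along the other 8 genes, by distance of the summit from the most upstream annotated 5' end (x axis, kb, along transcription) and by signal (y axis, peak caller's scale), with symbols as in the map of daf-2 and daf-16. The optimal peaks of akt-1, akt-2, ftt-2 and par-5 are all upstream of the gene, pdk-1 has 1 on each side of its 5' ends, and age-1, daf-18 and sgk-1 have no region above the dotted line.

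The 14-3-3 genes had peaks close to their 5' ends. At ftt-2 (WBGene00001502, chrX:11603708-11605419, minus strand), peak 2 (chrX:11605829-11605970) had a pooled signal of 120.5 and rank 199. Peak 1 (chrX:11605962-11606357) had a signal of 52.3 and rank 977. The intervals overlap and their summits are 203 bp apart, 538 bp (peak 2) and 741 bp (peak 1) upstream of the first of 2 annotated 5' ends. The replicate region of highest signal that overlaps either interval was a single region, of rank 344 in replicate 1 and 98 in replicate 2. Each replicate also had a second region in its top 1115, of rank 810 in replicate 1 and 883 in replicate 2. The replicate 1 region of rank 344 had its summit 120 bp from that of peak 2, and when a replicate summit within 100 bp was required, peak 2 took rank 810 in replicate 1 and kept rank 98 in replicate 2. Under that rule peak 1 took rank 883 in replicate 2 and had no match in replicate 1.

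At par-5 (WBGene00003920, chrIV:11820506-11821924, minus strand) the peak (chrIV:11821882-11822277) had a pooled signal of 76.3 and rank 510, with ranks of 517 in replicate 1 and 411 in replicate 2. Its summit was 156, 163 and 662 bp upstream of the 3 annotated 5' ends. It was also 126 bp upstream of M117.3, a gene on the other strand (chrIV:11822206-11823989), so that the summit lies between divergent 5' ends. It was the only one of the 15 peaks whose nearest protein-coding 5' end belonged to another gene.

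The stronger ftt-2 sequence (chrX:11605907-11606007) and the par-5 sequence (chrIV:11822030-11822130) are shown because these related genes share close upstream peaks but not the letters searched for. The par-5 summit holds CACGCG and a GA repeat, and neither ftt-2 summit holds any of the 5 motifs.
ftt-2 peak 2: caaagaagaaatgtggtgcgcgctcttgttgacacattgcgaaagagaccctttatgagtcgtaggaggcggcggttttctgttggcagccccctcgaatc
par-5 peak 1: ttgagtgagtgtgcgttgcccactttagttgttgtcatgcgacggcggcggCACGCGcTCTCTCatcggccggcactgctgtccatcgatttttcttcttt

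Neither 14-3-3 window had a CACGTG anywhere. The 14-3-3 genes, akt-2 and daf-16 were the 4 pathway genes with an optimal summit in a promoter window, against 3.17% of all protein-coding genes. Counting each summit for the nearest protein-coding 5' end only, 6 of the 10 genes had a peak, against 4.48% of all genes, since the par-5 summit then counts for M117.3.

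The FOXO gene daf-16 (WBGene00000912, chrI:10750498-10776703, plus strand) had 5 peaks, the most of the set. Of all protein-coding genes, 8 (0.0401%) had 5 or more optimal summits in the window, and 5 of these 8 were among the 198 genes with windows above 25 kb. The pooled signals of the 5 peaks were 59.1, 71.9, 62.8, 68.1 and 83.6 from upstream to downstream, with ranks 795, 562, 727, 629 and 419. Only peak 5, above 62.4% of optimal peaks, exceeded the median optimal signal of 72.2. The others were above 28.7% (peak 1) to 49.6% (peak 2) of optimal peaks. All 5 daf-16 peaks ranked below the akt-2 peak and the strongest peaks of daf-2, pdk-1 and ftt-2 in the pooled list. In replicate 1 the ranks of the daf-16 peaks were 659, 786, 2117, 642 and 405, and in replicate 2 they were 2880, 408, 448, 730 and 763. Peaks 2, 4 and 5 were in the top 1115 of both replicates. Peak 1 was so only in replicate 1, and peak 3 only in replicate 2.

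The daf-16 peaks were placed apart along the gene's 7 annotated 5' ends. Peaks 1 and 2 were intergenic, 1916 bp and 420 bp upstream of the first 5' end (R13H8.1h.1). Peak 2 also lay 554 bp upstream of that of R13H8.1f.1 and 882 bp upstream of that of R13H8.1d.1, and was the only daf-16 peak in a promoter window. Peak 3 lay 6584 bp downstream of the first 5' end, in a 12401 bp intron shared by 5 of the 11 transcripts. The 5' end shared by R13H8.1b.1 and R13H8.1c.1 was 6021 bp further downstream.

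Peaks 4 and 5 were in a 7676 bp intron shared by 9 transcripts. The summit of peak 4 was 2151 bp downstream of the 5' end of R13H8.1l.1 and R13H8.1m.1, and 5703 bp upstream of that of R13H8.1a.1. From peak 5, the 5' ends of R13H8.1a.1 and R13H8.1e.1 were 1615 bp and 3106 bp downstream. The strongest daf-16 peak in the pooled list and in replicate 1 was thus the one ahead of the R13H8.1a.1 start. In replicate 2 peak 2, ahead of the first start, ranked highest.

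No optimal daf-16 summit held a CACGTG within 50 bp, although the window contains 9 of them. The closest to an optimal summit was 66 bp from that of peak 1. Of the others, 5 lay within 50 bp of weaker candidates, at ranks 5277, 7298, 7756 (2 of the sequences) and 14575. The region of rank 7756 has its summit 33 bp downstream of the 5' end of R13H8.1a.1, and that of rank 14575 is 67 bp downstream of the 5' end of R13H8.1e.1, both in coding exons. Peak 2 held the DAF-16 element GTAAACA, which was present at 1.52% of all optimal summits and at 1.22% of weaker candidates. Peak 5 held a GA tract with 14 overlapping GAGAGA matches, peak 3 had 1 such match, and peak 4 a CACATG.

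Over the 15 peaks, the letters at the summit varied. CACGTG was within 50 bp of 2 summits (13.3%), against 19.2% of all optimal peaks and 2.96% of the 28885 weaker candidates. CACGCG was at 4 (26.7%), against 10.3% of optimal peaks and 1.59% of weaker candidates. Of the 15, 6 held one or both of these E-box forms, against 28.3% of all optimal peaks. GAGAGA was at 6 summits (40.0%), against 36.5% of all optimal peaks, and CACATG at 2 (13.3%), against 10.3%. In 3 peaks (1 at daf-16 and both at ftt-2) none of the 5 motifs was found, against 38.7% of all optimal peaks. With 15 peaks, of which the ftt-2 pair overlaps, these shares are descriptions and were not tested. The windows of the 10 genes hold 38 CACGTG sequences in all, and 2 of them (5.26%) lay within 50 bp of an optimal summit, against 1.31% of the 17729 in the nuclear genome.

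The median distance of the 15 summits to the nearest protein-coding 5' end was 1654 bp, against 858 bp for all 1115, and 5 of the 15 lay nearer than that. Without the peaks of daf-2 and daf-16, the genes with the longest windows, the median of the other 8 was 1054 bp. Promoter windows held 5 of the 15 (33.3%), against 49.6% of all. In terms of annotation, 9 were intergenic (60.0%, against 65.0% of all) and 6 were in introns (40.0%, against 27.9%), those of daf-2, pdk-1 and daf-16. None was in an exon. In the 10 windows 20.3% of the 74 pooled candidates were optimal, against 3.72% of the whole candidate list.

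**Figure D4:**
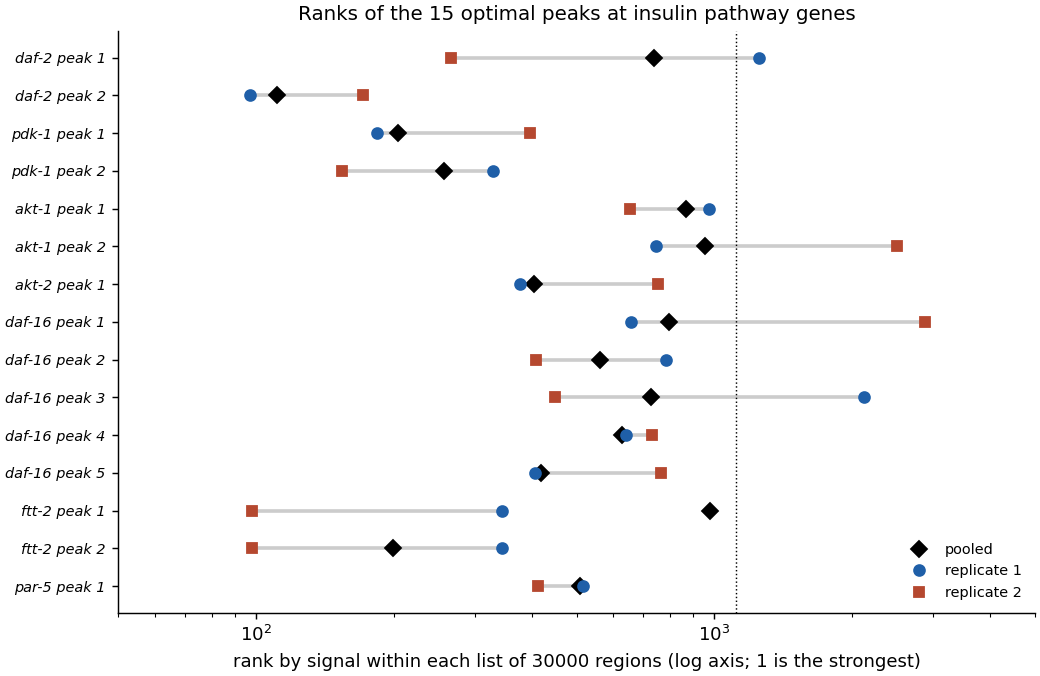
Rank of each of the 15 optimal peaks (rows, numbered along transcription) by signal in the pooled list (diamonds), replicate 1 (circles) and replicate 2 (squares), on a log axis where 1 is the strongest of 30000 regions. The dotted line is rank 1115, and 4 peaks (daf-2 peak 1, akt-1 peak 2 and daf-16 peaks 1 and 3) have a replicate to the right of it.

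The replicates placed 11 of the 15 peaks in the top 1115 of both lists (73.3%), against 64.4% of the 1113 optimal peaks matched in both. The 11 include both ftt-2 peaks, which were matched to the same replicate regions. Under both stricter matching rules the count was 10. The fold between the replicate ranks was 2.14 at the median, from 1.14 (daf-16 peak 4) to 4.73 (daf-16 peak 3). Over all matched optimal peaks the median was 1.76. The order of peaks within this set therefore holds only roughly. The peaks of pooled rank 111 to 257 (daf-2 peak 2, both of pdk-1 and ftt-2 peak 2) had ranks of 97 to 344 in replicate 1 and 98 to 395 in replicate 2. With a replicate summit required within 100 bp, ftt-2 peak 2 ranked 810 in replicate 1, behind akt-2, par-5 and several daf-16 peaks. In replicate 2, daf-2 peak 1 (rank 266) ranked above pdk-1 peak 1 (rank 395). As the optimal list was made from these same libraries, its peaks are no separate measure of reproducibility.

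With windows of 5 kb upstream and the whole optimal list, other genes of the pathway showed peaks at a share near the background. Of 71 further genes in 4 lists, 6 had an optimal peak in the window (8.45%), against 7.46% of all protein-coding genes. Of 39 insulin-like peptide genes, including daf-28, only ins-39 had one (2.56%). That peak (chrX:1344840-1345235) had a signal of 145, rank 140, 617 bp upstream of ins-39, with ranks of 133 and 146 in replicates 1 and 2. Of 3 genes for adaptors and a phosphatase regulator, ist-1 and pptr-1 had peaks (66.7%), and aap-1, the adaptor subunit that partners AGE-1, had none. The gene ist-1, for an insulin receptor substrate homologue, had a peak of signal 76.9 in an intron, 2511 bp upstream of its nearest 5' end and with a CACGTG. The peak of pptr-1, for a regulatory subunit of the phosphatase that acts on AKT-1, had a signal of 135 and rank 160, 1445 bp upstream, and ranked 155 in replicate 1 and 174 in replicate 2.

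Of 14 regulators and partners of DAF-16, skn-1 and smk-1 had peaks (14.3%, against 7.46% of all protein-coding genes). The gene skn-1, for the Nrf-like factor of the oxidative stress response, had 1 of signal 96.9 in an intron, with the nearest skn-1 start 1646 bp downstream of the summit. The gene smk-1, for a cofactor of DAF-16 in longevity, had 2 weak ones (signals 54.1 and 51.4), which ranked 3491 and 2506 in replicate 2, and the summit of the first lay nearer to vps-60. Of 15 known DAF-16 target genes, 1 had any (6.67%, near the 7.46% of all protein-coding genes). This was icl-1, for the glyoxylate cycle enzyme. Its 3 peaks had signals of 266, 88.8 and 58.2. The strongest was 109 bp downstream of a 5' end of srh-2, a neighbouring gene that lies upstream of icl-1. The peak of signal 58.2, of rank 6184 in replicate 2, was in an intron of srh-2, 1003 bp downstream of its nearest 5' end. The peak of signal 88.8 was 18 bp upstream of icl-1. Widely used DAF-16 reporters such as sod-3 (best pooled rank 4420) and mtl-1 (2116) had no optimal peak.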

How the data were processed

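The deposited files are peak lists on builds ce10 and ce11; the ce11 lists were used. Per the file headers of the deposited descriptions, the authors made candidate lists for each replicate and for pooled replicates, and the optimal list, kept by the irreproducible discovery rate, came from all 3. Not given in the sources used here: the aligner, peak caller, thresholds and handling of controls. The deposited signal is the peak caller's own value, without read totals, so depth is unknown and signal was used only to rank within a list. The optimal list equalled the 1115 pooled regions of highest signal.

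Summits were placed on the Ensembl release 115 annotation (WBcel235) and the RefSeq sequence of that assembly, in Python 3.11.15 with numpy 2.4.6 and pandas 2.3.3. All ce11 regions lay within the reference chromosomes. A peak was matched to the replicate region of highest signal that overlapped it by at least 1 bp. Features were taken from protein-coding transcripts of either strand, in the order coding exon, 5' UTR, 3' UTR, intron, intergenic, and motifs were searched on both strands within 50 bp of the summit. With 1 group of 2 replicates no test was made, and counts are set beside the share of all 19973 genes. Named genes were the 10 members, genes nearest to or holding a described summit, and genes of the 4 other lists with an optimal peak; aap-1, daf-28, sod-3 and mtl-1 were added after their values were seen. The members and lists were chosen with earlier results of these data known. The counting code was tested on planted summits and motifs. Alternatives covered the window, the peak set, each replicate left out, the assignment to genes, the matching rule and the motif window.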

Additional observations from a re-analysis of the deposited data

How the results depend on the processing

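No paired analysis was possible because the series has 1 group. The count of 7 pathway genes with a peak stayed between 6 and 8 under the 7 alternatives tried, beside 3.80% to 11.4% of all genes. With 10 kb upstream it was 8, as age-1 gained a peak of signal 61.6, and with the upper part of the optimal list by signal it was 6, without akt-1. Ranking by 1 replicate alone gave the same 7 genes each time. The count of 4 with a promoter summit was 3 to 6, beside 1.57% to 4.51% of all genes. The 15 peaks in the windows became 7 with the stronger 557 optimal peaks, which is by construction, and 13 without either replicate. CACGTG was at 1 to 3 of the 15 summits when the summits of 1 replicate were used. It was at 3 with 100 bp either side, which adds daf-16 peak 1, and at 2 with 25 bp either side. With 25 bp the share of the 15 was slightly above that of all optimal peaks, and with 50 bp or 100 bp it was below. The direction of that comparison thus depends on the motif window. The other genes with a peak numbered 5 to 8 of 71. With 2 kb upstream they were 6, beside 4.94% of all genes, and with 10 kb upstream 8, beside 11.4%. With the upper part of the optimal list they were 5, beside 3.80%. How their share compares with that of all genes thus depends on the setting, and was not tested. Peaks in the top 1115 of both replicates numbered 10 under both stricter matching rules. Of 60 single replicate ranks tried under those rules, 3 lost their match and 3 moved by more than the spread between replicates, all at ftt-2. In replicate 1, 344 became 810 for peak 1 (the stricter overlap) and for peak 2 (summit within 100 bp), and in replicate 2, 98 became 883 for peak 1 (summit within 100 bp). The median distance without daf-2 and daf-16 was chosen after seeing the data. Depth is unknown, so a gene without a peak is only one where none was detected.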
